A study of Homo sapiens with 8 samples.

Results

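The genes described here are 8 human genes that began as parts of retroviruses or retrotransposons and are now transcribed as genes of the host: PEG10, RTL1, ERVH48-1, ERVFRD-1, ERVW-1, ERVMER34-1, ERV3-1 and ERVK3-1. They were taken by name from the transcripts to which the combined transcript assembly gives a gene name, whatever their level. They are 8 of the 20195 genes listed and account for 20 of 96614 listed transcripts and 1520 reads. Long reads of polyadenylated RNA (PacBio Sequel II) were counted in 8 libraries, 2 repeats of each of 4 groups, all of H1, a single established line of human embryonic stem cells. Undifferentiated cells (hPSC) were kept in mTeSR1 on Matrigel. The other groups were cultured for 5 days towards endoderm (WNT3A and Activin A), mesoderm (VEGF, BMP4 and bFGF, with Activin A at first only) or ectoderm (the inhibitors A83-01, PNU-74654 and Dorsomorphin, with KOSR). The labels do not say whether repeats were separate cultures, so p-values measure the spread between these samples, which may be technical.

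Retroviruses encode a gag protein, which builds the particle, and an envelope protein (env), which binds a receptor and fuses membranes. A few such genes inherited in the human genome have kept an open reading frame and are used by the host, above all in the placenta. PEG10 and RTL1 descend from the gag and pol genes of one family of LTR retrotransposons and are imprinted, being expressed from the paternal chromosome. ERVW-1 encodes syncytin-1 and ERVFRD-1 syncytin-2, the envelope proteins that fuse trophoblast cells, and ERVH48-1 encodes suppressyn, a truncated envelope protein that binds the syncytin-1 receptor and inhibits that fusion. ERVMER34-1 encodes HEMO, an envelope protein shed from stem cells and placenta. ERV3-1 holds the envelope gene of ERV3, and ERVK3-1 is a spliced gene of an HERV-K3 locus.

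Library totals ran from 503840 counts in mesoderm repeat 2 to 1180888 in ectoderm repeat 1, and the 8 genes together took from 0.00963% of a library in hPSC to 0.0526% in endoderm. Several of the genes had few reads, so counts are given beside CPM (counts scaled to a library total of 1e6). A count of 0 allows up to 3 counts, which is 2.54 to 5.95 CPM depending on the library. Such limits, like the intervals below, cover counting error only. The labelled cell types were checked against marker genes. In endoderm 7 of 7 tested endoderm markers rose, among them CER1, and in ectoderm 4 of 5 tested ectoderm markers rose, among them PAX6. Of those 5 ectoderm markers, 2 also rose in endoderm, PAX6 and OTX2. Of 9 pluripotency markers, 6 fell in ectoderm, 5 in endoderm and 8 in mesoderm, and NANOG and TDGF1 were not called in endoderm. In mesoderm 2 of 3 tested mesoderm markers rose, HAND1 and TBX3, and all 3 rose in endoderm. In mesoderm TBXT had 1 and 0 reads, FOXF1 had none, while 13 of 14 tested amnion and trophoblast markers rose. The hPSC repeats stood apart from each other in some genes, such as SOX2 with 71 and 5 reads. A difference between bulk libraries cannot tell fewer cells of a type from less RNA per cell.

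**Figure D1:**
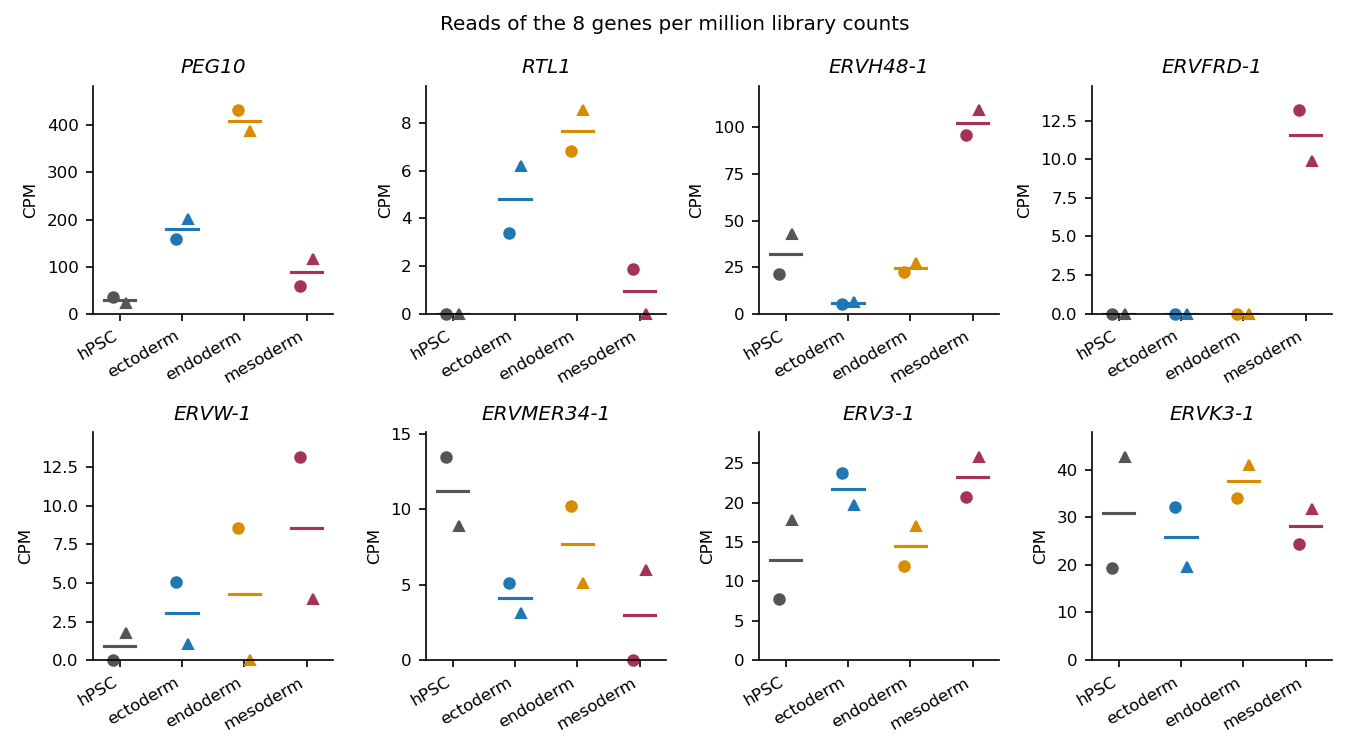
Level of each gene in CPM (y axis, linear, scaled per gene) in the 4 groups (x axis). Circles are repeat 1, triangles repeat 2 and bars the mean of both. PEG10 is highest in endoderm, ERVH48-1 and ERVFRD-1 are highest in mesoderm, and no group stands clear of the others for ERVK3-1.

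Of the 8 genes, PEG10, ERVH48-1, ERV3-1 and ERVK3-1 had enough counts to pass the filter on low counts and were tested with edgeR's quasi-likelihood test, with p-values adjusted over all 10847 genes tested, unnamed assembled loci included. The other 4 genes had 12 to 33 reads each in all libraries and are described by their counts. In ectoderm against hPSC, 1 of the 4 tested genes rose and 1 fell, where 48.6% of all tested genes were called and 24.8% were lower. In endoderm 1 rose and none fell, against 27.2% of all tested genes. In mesoderm 2 rose and none fell, against 35.1%. The median log2 fold change of the 4 was -0.19, 0.53 and 0.99 in ectoderm, endoderm and mesoderm, where the median of all tested genes was -0.01, -0.13 and 0.01. Between the layers, 3 of the 4 were lower in ectoderm than in endoderm (63.1% of all genes called, 29.9% lower), 1 was lower in ectoderm than in mesoderm (35.4%), and 1 was higher and 1 lower in endoderm than in mesoderm (47.1% called, 23.2% higher).

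**Figure D2:**
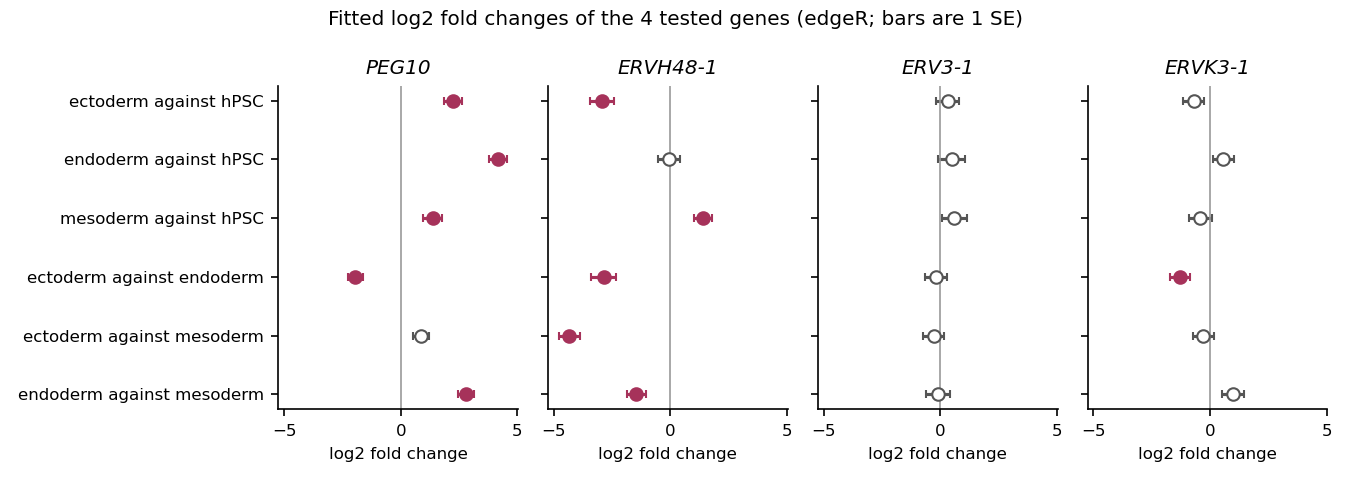
Fitted log2 fold change (x axis) of the 4 tested genes in each comparison (y axis), first group against second, with bars of 1 SE. Filled points passed an adjusted p of 0.05: 5 comparisons for PEG10, 5 for ERVH48-1, none for ERV3-1 and 1 for ERVK3-1.

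PEG10 (ENSG00000242265.6) lies on the plus strand at chr7:94656301-94669695 on GRCh38 and encodes a gag-like RNA-binding protein of 325 codons in its first frame. It was the gene with most reads of the set, 985 of 1520. The hPSC repeats gave 18 and 13 counts, those of ectoderm 188 and 195, those of endoderm 253 and 228, and those of mesoderm 31 and 59. In CPM these were 28.9 ± 8.15 (SD, n = 2), 180.4 ± 29.99, 410.5 ± 30.5 and 87.7 ± 41.5. Both libraries of every layer were above both hPSC libraries, and no library of endoderm overlapped any other group. Against hPSC the log2 fold change was 4.17 ± 0.39 (SE) in endoderm, with an adjusted p of 2.84e-06. In ectoderm it was 2.23 ± 0.39 (adjusted p = 0.000321), and in mesoderm 1.38 ± 0.41 (adjusted p = 0.0160). Endoderm was also above ectoderm, by 1.95 on the log2 scale (adjusted p = 0.000116), and above mesoderm, by 2.80 (adjusted p = 2.07e-05).

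Ectoderm and mesoderm, the neighbours in the middle of that order, differed by 0.85 ± 0.34 with an adjusted p of 0.0634, although their libraries did not overlap. That call was made with no filter on low counts (adjusted p = 0.0170, under the limit given below for RTL1). It was also made without hPSC repeat 1, hPSC repeat 2 or mesoderm repeat 2. The hPSC libraries enter this comparison only through the spread and scaling that the fit shares. The size of the difference rested on which mesoderm library was kept: it was 1.496 without mesoderm repeat 2 and 0.44 without mesoderm repeat 1. The mesoderm rise of PEG10 rested on mesoderm repeat 2, with 59 reads against 31 in repeat 1: without it the log2 fold change was 0.86 and the adjusted p 0.181. Reads in ectoderm were counted for longer transcripts, 4406 and 4650 nt on average against 2975 to 3840 nt in the other libraries, and both PEG10 transcripts are longer still, 6642 and 6581 nt. With a smooth trend on transcript length removed from each library, the ectoderm rise was 1.40 (adjusted p = 0.00744), the mesoderm rise 0.97 (adjusted p = 0.0653), and the endoderm rise 4.34. The difference of ectoderm from endoderm was then -2.94 in place of -1.95.

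Both PEG10 transcripts had 2 exons, differed at exon 1 and held the gag frame of 325 codons whole in exon 2. One ended exon 1 where ENST00000482108.1 does and had 700 reads, and the other ended it 11 nt further downstream, as in ENST00000612748.1, and had 285. The site at which ribosomes slip by 1 base to read from the gag frame into the pol frame, which makes the longer PEG10 protein, is printed because every assembled PEG10 transcript carries it. Capitals mark the slippery heptamer, found once in the transcript, 953 bases after the first base of the start codon and 15 bases before the stop codon of the gag frame, in GENCODE 29 on the plus strand at chr7:94664480-94664546.
PEG10 frameshift site: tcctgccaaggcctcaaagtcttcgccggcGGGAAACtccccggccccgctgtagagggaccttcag

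The annotated product that reads through this site and starts upstream has 783 codons. The 11 nt that the longer exon 1 adds hold an upstream start codon, from which GENCODE 29 annotates the gag frame at 401 codons in place of 325. The 30 bases that follow that start in the spliced RNA, from position 94656587 of chromosome 7, are printed with the 5 bases encoded by exon 1 in capitals.
PEG10 coding start in the longer exon 1: ATGCGaaataagcgggttttgaaaacaaaa

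Of the PEG10 reads, the longer exon 1 took 27.8% and 46.2% in the hPSC repeats, 29.8% and 28.2% in those of ectoderm, 25.7% and 32.5% in those of endoderm, and 35.5% and 22.0% in those of mesoderm. The exact binomial 95% intervals were widest in hPSC repeat 2, from 19.2% to 74.9% of 13 reads, and narrowest in endoderm repeat 1, from 20.4% to 31.5% of 253. The ranges of all 4 groups overlapped. Transcript choice within PEG10 gave adjusted p values of 0.824, 0.830 and 0.746 for ectoderm, endoderm and mesoderm against hPSC, in a test that called 5.63%, 5.06% and 7.0% of the 2629 genes with at least 2 tested transcripts. The transcript with the shorter exon 1 rose in all 3 layers, by 2.55 ± 0.45, 4.25 ± 0.46 and 1.69 ± 0.48 on the log2 scale (adjusted p = 0.000422, 1.05e-05 and 0.0137). The one with the longer exon 1 rose by 2.10 ± 0.44 in ectoderm and 3.80 ± 0.42 in endoderm (adjusted p = 0.00127 and 1.38e-05), and its value in mesoderm was 1.07 ± 0.50 (adjusted p = 0.112). Of all 12440 transcripts tested, 45.9%, 26.7% and 32.8% were called in ectoderm, endoderm and mesoderm. Without mesoderm repeat 2 the mesoderm value of the first transcript was 0.92 (adjusted p = 0.255), and with the length trend removed it was 1.22 (adjusted p = 0.0588). The same correction took the ectoderm value of the second to 1.09 (adjusted p = 0.0700).

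The split between the exons depended on the assembly the reads were counted on. In the authors' tables for the assembly of each group alone, a choice made after the shares above were seen, the longer exon 1 took 28.2% and 30.8% of PEG10 reads in ectoderm. In the same tables it took 1.58% and 0.877% in endoderm, 3.23% and 1.69% in mesoderm, and none in hPSC. In the endoderm and mesoderm assemblies the transcript with the longer exon 1 was much shorter, 2588 and 2587 nt in place of 6581, and ended upstream of the other transcript's end. Total PEG10 counts were the same in both kinds of table in every library.

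RTL1 (ENSG00000254656.3), a second imprinted gene of gag and pol origin that is needed for the fetal vessels of the placenta, lies on the minus strand at chr14:100879751-100903722. One transcript of 4 exons was assembled, matching ENST00000649591.1, with the whole coding region of 1358 codons in its last exon. No read was counted in hPSC. The ectoderm repeats had 4 and 6 reads, the endoderm repeats 4 and 5, and the mesoderm repeats 1 and 0. Both ectoderm and both endoderm libraries had reads, and both hPSC libraries had none. Set against a floor of 3 counts over the hPSC group, the pooled level was 2.77-fold higher in endoderm and 1.68-fold higher in ectoderm. These ratios leave out the counting error of the endoderm and ectoderm reads, so they are not lower limits. The gene had too few reads for the main test. The fit with no filter on low counts gave far smaller p-values at nearly the same estimate. For PEG10 in endoderm against hPSC, its unadjusted p was 1.32e-27 at 4.23 ± 0.39, in place of 1.39e-08 at 4.17 ± 0.39. Calls from that fit are therefore given as a description. In it the adjusted p of RTL1 against hPSC was 0.0139 in endoderm, where 11.3% of genes were called, and 0.0828 in ectoderm, where 21.3% were. The ratio of ectoderm to endoderm was 0.606, with an interval of 0.221 to 1.69, and that of endoderm to mesoderm 7.95, with an interval of 1.102 to 348. RTL1 was assembled from endoderm reads only. In the tables of the other groups' own assemblies it has no counts, so the ectoderm values rest on the combined assembly.

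The RTL1 coding region is also the place where the antisense strand encodes microRNAs, which are made from the maternal chromosome and pair perfectly with RTL1 mRNA. RefSeq (GRCh38.p14) lists 5 microRNA genes there, with 10 mature microRNAs, all on the plus strand inside the coding region of RTL1, and each has 1 fully complementary site in the RTL1 transcript. The 10 seeds all differ. Polyadenylated long reads of this kind do not count mature microRNAs, and no assembled plus-strand transcript had an exon over the last exon of RTL1. The 5p arms are printed to show what lies opposite the RTL1 reads, in order along the chromosome from position 100881026, with the seed (bases 2 to 8) in capitals, and the first is followed by its site in RTL1, read on the RTL1 strand, with the seed match in capitals.
hsa-miR-431-5p: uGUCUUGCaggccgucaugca
hsa-miR-433-5p: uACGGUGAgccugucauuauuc
hsa-miR-127-5p: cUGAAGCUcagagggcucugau
hsa-miR-432-5p: uCUUGGAGuaggucauugggugg
hsa-miR-136-5p: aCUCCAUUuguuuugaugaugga
RTL1 site of hsa-miR-431-5p: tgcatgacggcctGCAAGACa

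ERVFRD-1 (ENSG00000244476.3, syncytin-2) lies on the minus strand at chr6:11102488-11111725. Its single transcript had 2 exons, matched ENST00000472091.2 and held the whole envelope gene of 538 codons. It had 7 and 5 reads in mesoderm and none in the 6 other libraries. Both mesoderm libraries were therefore above every other library. Against a floor of 3 counts over the group, the pooled mesoderm level of 11.6 CPM was 4.18-fold higher than in hPSC. It was 4.53-fold higher than in endoderm and 8.30-fold higher than in ectoderm. The counting error of the mesoderm reads is left out of these ratios, so they are not lower limits. With no filter on low counts, under the limit given for RTL1, the adjusted p against hPSC was 0.0128, where 14.4% of genes were called in mesoderm. It was 0.0179 against endoderm (19.1% of genes called) and 0.000376 against ectoderm (16.1%). The transcript was assembled from mesoderm reads only, and its counts were the same in the table of that assembly.

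ERVW-1 (ENSG00000242950.7, syncytin-1) lies on the minus strand of chromosome 7, from 92468380 to 92484943. The hPSC repeats had 0 and 1 reads, the ectoderm repeats 6 and 1, the endoderm repeats 5 and 0, and the mesoderm repeats 7 and 2. The repeats of each layer lay far apart, and both mesoderm libraries were above both hPSC libraries. The pooled mesoderm level was 9.40 times that of hPSC, with an interval of 1.30 to 412 from the 1 hPSC read. With no filter on low counts the adjusted p was 0.136 in mesoderm, 0.508 in ectoderm and 0.366 in endoderm. The 3 transcripts shared the whole envelope gene, also of 538 codons, and differed upstream of it. The longest, of 2 exons and 7298 nt and matching ENST00000603252.1, had 13 of the 22 reads, spread over 6 libraries. Another with 2 exons but 2788 nt, matching ENST00000603053.2, had 5 reads, 4 of them in mesoderm repeat 1. The 4-exon form of 3024 nt, which starts further upstream and matches no reference transcript, had 4 reads, 3 of them in endoderm repeat 1. ERVW-1 was assembled from endoderm and mesoderm reads only. In the tables of those assemblies it had 8 and 3 reads in endoderm and 7 and 2 in mesoderm.

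A fusogenic envelope protein is cut in the Golgi between its surface and transmembrane subunits, at a site of basic residues, and the transmembrane part holds a stretch that is conserved among retroviruses. Those regions are printed for both syncytins, since every assembled ERVFRD-1 and ERVW-1 transcript holds them. Capitals mark the 4 codons of the cleavage site (arginine, any residue, lysine or arginine, arginine) and, in the second pair, 5 codons at the start of the conserved stretch, which are printed with the 3 codons before them. They lie on the minus strand of GRCh38 at chr6:11104246-11104287 and chr6:11104030-11104080 for ERVFRD-1, and at chr7:92469416-92469457 and chr7:92469203-92469253 for ERVW-1.
ERVFRD-1 cleavage site: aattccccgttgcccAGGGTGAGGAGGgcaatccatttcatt
ERVW-1 cleavage site: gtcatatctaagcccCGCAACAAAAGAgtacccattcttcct
ERVFRD-1 conserved stretch: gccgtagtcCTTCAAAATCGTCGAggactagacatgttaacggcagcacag
ERVW-1 conserved stretch: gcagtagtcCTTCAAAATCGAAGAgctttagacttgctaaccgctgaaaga

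The second pair of printed sequences had the same base at 37 of 51 positions, the 3 leading codons included. Both stretches were located by searching for the same 5 amino acids, encoded by the capitals, so agreement there was largely set by that search. The cleavage codons stood at codons 347 to 350 of ERVFRD-1 and 314 to 317 of ERVW-1. Neither pattern was found in the envelope genes of ERVMER34-1 or ERV3-1.

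ERVH48-1 (ENSG00000233056.4, suppressyn) lies on the minus strand at chr21:42916801-42925630. It had 1 transcript of 2 exons, matching ENST00000447535.2, assembled in all 4 groups. GENCODE 29 lists it as noncoding, and its longest reading frame from a start codon has 160 codons, in exon 2. The counts of the repeats were 11 and 24 for hPSC, 6 and 6 for ectoderm, 13 and 16 for endoderm, and 51 and 55 for mesoderm. In CPM these were 31.9 ± 15.2 (SD, n = 2), 5.64 ± 0.794, 24.7 ± 3.602 and 102.6 ± 9.29. Mesoderm was above and ectoderm below every other library, while endoderm lay within the range of hPSC.

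In ectoderm ERVH48-1 was below hPSC by a log2 fold change of -2.92 ± 0.52 (adjusted p = 0.000386). In mesoderm it rose by 1.41 ± 0.39 (adjusted p = 0.0117). Endoderm and hPSC were not told apart, with a log2 fold change of -0.07 and a 95% interval from -0.96 to 0.83. Between the layers, the log2 fold change of ectoderm was -4.33 ± 0.45 against mesoderm (adjusted p = 4.43e-06) and -2.86 ± 0.54 against endoderm (adjusted p = 0.000300). Endoderm was below mesoderm, at -1.47 ± 0.40 (adjusted p = 0.00766). The mesoderm rise was not called by DESeq2 (adjusted p = 0.0641), nor without hPSC repeat 1 (log2 fold change 0.86, adjusted p = 0.0511) or mesoderm repeat 2 (1.40, adjusted p = 0.0623). The difference between endoderm and mesoderm was not called without endoderm repeat 1 (-1.29, adjusted p = 0.0731). Without hPSC repeat 2 the ectoderm value against hPSC was -2.14 (adjusted p = 0.00617), the mesoderm value 2.19 (adjusted p = 0.000200) and the endoderm value 0.72 (adjusted p = 0.293).

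The partners of the syncytins were read from a list of 4 genes. SLC1A5, the receptor that syncytin-1 uses and suppressyn binds, fell in ectoderm (log2 fold change -1.89 ± 0.50, adjusted p = 0.00575). Its hPSC repeats were far apart, with 424 and 86 reads, or 816 and 153 CPM. They overlapped the ectoderm repeats, at 147 and 181 CPM. MFSD2A, the receptor of syncytin-2, had 13 and 6 reads in the hPSC repeats, 1 and 2 in those of ectoderm, 8 and 13 in those of endoderm and none in mesoderm. It fell in ectoderm (adjusted p = 0.000778) and in mesoderm (adjusted p = 0.00175). The 2 libraries with syncytin-2 reads were therefore those with no MFSD2A read. SLC1A4, another receptor of syncytin-1, was too low to test and had 6 and 5 reads in mesoderm, 0 and 5 in ectoderm and 1 in endoderm. GCM1, the trophoblast factor that activates the syncytin genes, had no listed transcript.

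Amnion and trophoblast markers were high in the same 2 libraries as ERVH48-1 and ERVFRD-1. Of 18 such markers 16 had reads and 14 were tested, and in mesoderm 13 rose and none fell. In ectoderm 2 rose and 2 fell, and in endoderm 2 rose and 4 fell. Of all tested genes, 35.1% were called in either direction in mesoderm, 48.6% in ectoderm and 27.2% in endoderm. The median log2 fold change of the tested markers in mesoderm was 7.69, where the median of all tested genes was 0.01. GATA3, TFAP2A, CYP19A1 and GATA2 had the largest fitted changes among them. CYP19A1, the aromatase of placenta, had 76 and 41 reads in mesoderm and none elsewhere, and CGA, the common subunit of chorionic gonadotropin, had 29 and 33. The summed level of the 16 was 6155 and 6439 CPM in mesoderm and between 46.3 and 191 CPM in the other libraries. GABRP alone gave 4272 and 4674 CPM of the mesoderm sums (2269 and 2355 reads), so most of each sum is 1 gene. No transcript was listed for CGB5 or INSL4, which mark syncytiotrophoblast. Of the other envelope genes of placenta, ERVV-2 had 17 and 6 reads in mesoderm and none elsewhere, and ERVV-1 had 4 and 1 there and 1 in hPSC repeat 2. The part of such cells in the ERVH48-1 and ERVFRD-1 levels was not tested.

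**Figure D3:**
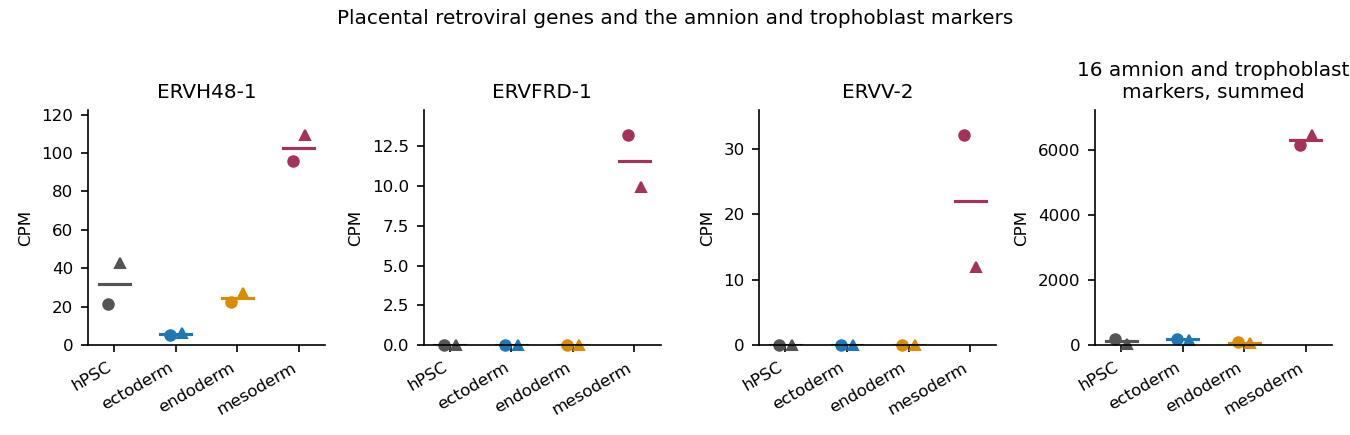
Level in CPM (y axis, linear, scaled per panel) of ERVH48-1, ERVFRD-1, ERVV-2 and the sum of 16 amnion and trophoblast markers in the 4 groups (x axis). Circles are repeat 1, triangles repeat 2 and bars the mean. The mesoderm libraries are the highest in every panel, at 6155 and 6439 CPM for the marker sum. GABRP alone gives 4272 and 4674 CPM of that sum.

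ERVMER34-1 (ENSG00000226887.8) lies on the minus strand at chr4:52741584-52751650. There were 7 and 5 reads in the hPSC repeats, 6 and 3 in those of ectoderm, 6 and 3 in those of endoderm, and 0 and 3 in those of mesoderm. The hPSC level, 11.2 ± 3.24 CPM (SD, n = 2), was the highest, and both ectoderm and both mesoderm libraries were below both hPSC libraries. The pooled mesoderm level was 0.261 times that of hPSC, with an interval of 0.0473 to 0.968, and the ectoderm level 0.378 times, with an interval of 0.140 to 0.976. With no filter on low counts neither was called, with adjusted p values of 0.117 and 0.105. Endoderm against hPSC had a ratio of 0.692 and an interval of 0.258 to 1.79. Both assembled transcripts, matching ENST00000443173.6 with 27 reads and ENST00000440542.1 with 6, held the whole envelope gene of 563 codons.

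ERV3-1 (ENSG00000213462.5) lies on the minus strand at chr7:64990356-65006687. Reads of the repeats numbered 4 and 10 for hPSC, 28 and 19 for ectoderm, 7 and 10 for endoderm, and 11 and 13 for mesoderm, or 12.7 ± 7.13, 21.7 ± 2.88, 14.5 ± 3.61 and 23.3 ± 3.599 CPM (SD, n = 2). Its level was not called different in any of the 6 comparisons. The log2 fold change against hPSC was 0.32 in ectoderm (95% interval -0.66 to 1.29), 0.49 in endoderm (-0.64 to 1.62) and 0.59 in mesoderm (-0.46 to 1.65). The hPSC library kept set the sign of all 3: they were 1.22, 1.39 and 1.498 without hPSC repeat 2, and -0.29, -0.12 and -0.01 without hPSC repeat 1.

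Nearly all of those reads were not counted for the envelope gene. The spliced transcript that matches ENST00000394323.3 and holds the 604 codons of the envelope had 3 of 102 reads, 2.94% with an exact binomial 95% interval of 0.611% to 8.36%. They were 2 in ectoderm repeat 2 and 1 in mesoderm repeat 1. A single-exon transcript of 1819 nt at the start of the gene had 82 reads, from 4 in hPSC repeat 1 to 20 in ectoderm repeat 1, and made up between 63.2% and 100% of the ERV3-1 reads of a library. A long single-exon transcript, 10191 nt inside the intron, had 15 reads, 11 of them in ectoderm, and a short spliced one had 2. Neither single-exon transcript overlaps the envelope gene. The name of the transcript again depended on the assembly. The ectoderm assembly lacked the 1819 nt transcript, and when counted on it the short spliced transcript matching ENST00000535538.1 had 20 and 13 reads. The mesoderm assembly lacked it too, and there ERV3-1 had 1 and 2 reads in place of 11 and 13. The gene also shares exon sequence with ZNF117, a zinc finger gene read from the same strand, so reads of both cannot be fully told apart. ZNF117 rose in ectoderm (log2 fold change 3.70 ± 0.74, adjusted p = 0.000972) and mesoderm (2.81 ± 0.90, adjusted p = 0.0239).

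RefSeq (GRCh38.p14) start windows were matched for 5 of the 8 genes and give 2 starts for ERV3-1. The first, at 65006687 on the minus strand of chromosome 7, is the exact start of assembled transcripts with 85 of the 102 reads. At the second, 64999442, no transcript started, and the nearest assembled start was 5426 nt away. The 60 bases upstream of each are printed to compare the start in use with the other, at chr7:65006688-65006747 and chr7:64999443-64999502, with the motifs CCAAT and TATAAA in capitals.
ERV3-1 start used by assembled transcripts: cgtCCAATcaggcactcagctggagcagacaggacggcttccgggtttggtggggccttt
ERV3-1 second RefSeq start: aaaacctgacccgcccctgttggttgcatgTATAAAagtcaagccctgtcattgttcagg

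In the 250 bases upstream, the first start had CCAAT 2 times and no TATAAA, and the second had TATAAA 1 time and no CCAAT, counting both strands. The printed motifs do not overlap. Of 35116 RefSeq windows of the same length, 32.01% held CCAAT and 10.7% held TATAAA on either strand.

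ERVK3-1 (ENSG00000142396.11) lies on the plus strand at chr19:58305357-58316569 and has a short annotated coding region of 109 codons over 2 exons. The repeats gave 10 and 24 reads for hPSC, 38 and 19 for ectoderm, 20 and 24 for endoderm, and 13 and 16 for mesoderm, or 31.0 ± 16.6, 25.9 ± 8.86, 37.5 ± 4.80 and 28.1 ± 5.15 CPM (SD, n = 2). The hPSC repeats, at 19.3 and 42.7 CPM, spanned the values of all other libraries, and no layer was called against hPSC. Leaving out an hPSC library made a call: -1.28 in ectoderm without hPSC repeat 1 (adjusted p = 0.0125), and 1.45 in endoderm without hPSC repeat 2 (adjusted p = 0.0263). The uncalled values changed sign with the library kept, to 0.19 in ectoderm and 0.47 in mesoderm without hPSC repeat 2, and to -0.01 in endoderm without hPSC repeat 1. In pooled CPM, which are scaled to library totals, ectoderm was 0.707 times endoderm, with an interval of 0.469 to 1.07. In the fit, which scales libraries by factors computed over the tested genes (TMM), ectoderm was lower than endoderm (log2 fold change -1.27 ± 0.43, adjusted p = 0.0181). That difference was not called by DESeq2 (adjusted p = 0.0805), without ectoderm repeat 2 (-0.97, adjusted p = 0.143) or without endoderm repeat 2 (-1.09, adjusted p = 0.128). Endoderm against mesoderm was 0.99 (adjusted p = 0.0961), and this was called with the length trend removed (adjusted p = 0.0448). Leaving out hPSC repeat 1 or 2 also made this call, but hPSC enters this comparison only through the spread and scaling that the fit shares.

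More of the ectoderm reads of ERVK3-1 were counted for transcripts with an unspliced coding region, a difference given as a description. Of the 6 assembled transcripts, 2 keep the intron that divides the coding region. They took 20 of 38 and 7 of 19 reads in the ectoderm repeats, 52.6% and 36.8%. In the other libraries the share was 10.0% and 12.5% in hPSC, 15.0% and 16.7% in endoderm, and 7.69% and 25% in mesoderm. Both ectoderm libraries were above all others, although the intervals of both, 35.8% to 69.02% and 16.3% to 61.6%, overlapped those of libraries in each other group. Over both repeats the share was 47.4% in ectoderm (interval 34.0% to 61.0%) and 11.8% in hPSC (3.30% to 27.5%). The fully spliced 4-exon transcript that matches ENST00000413518.6 had 9 and 19 reads in the hPSC repeats, 9 and 10 in those of ectoderm, 15 and 16 in those of endoderm, and 10 and 12 in those of mesoderm. It was lower in ectoderm than in hPSC (log2 fold change -1.76 ± 0.51, adjusted p = 0.0111). That call was lost with DESeq2 (adjusted p = 0.118), with no filter on low counts (0.0627), with the length trend removed (0.0576), without hPSC repeat 2 (-1.08, adjusted p = 0.185) and without ectoderm repeat 1 (-1.54, adjusted p = 0.0914). With all transcripts in the fit, transcript choice within ERVK3-1 had an unadjusted p of 0.00354 in ectoderm and an adjusted p of 0.166. One of the 2 intron-keeping transcripts, of 9650 nt, was assembled from ectoderm reads only, and the assemblies of hPSC and mesoderm alone hold only ERVK3-1 transcripts of 4 exons. Ectoderm reads were counted for longer transcripts on average, and how that relates to this share was not tested.

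**Figure D4:**
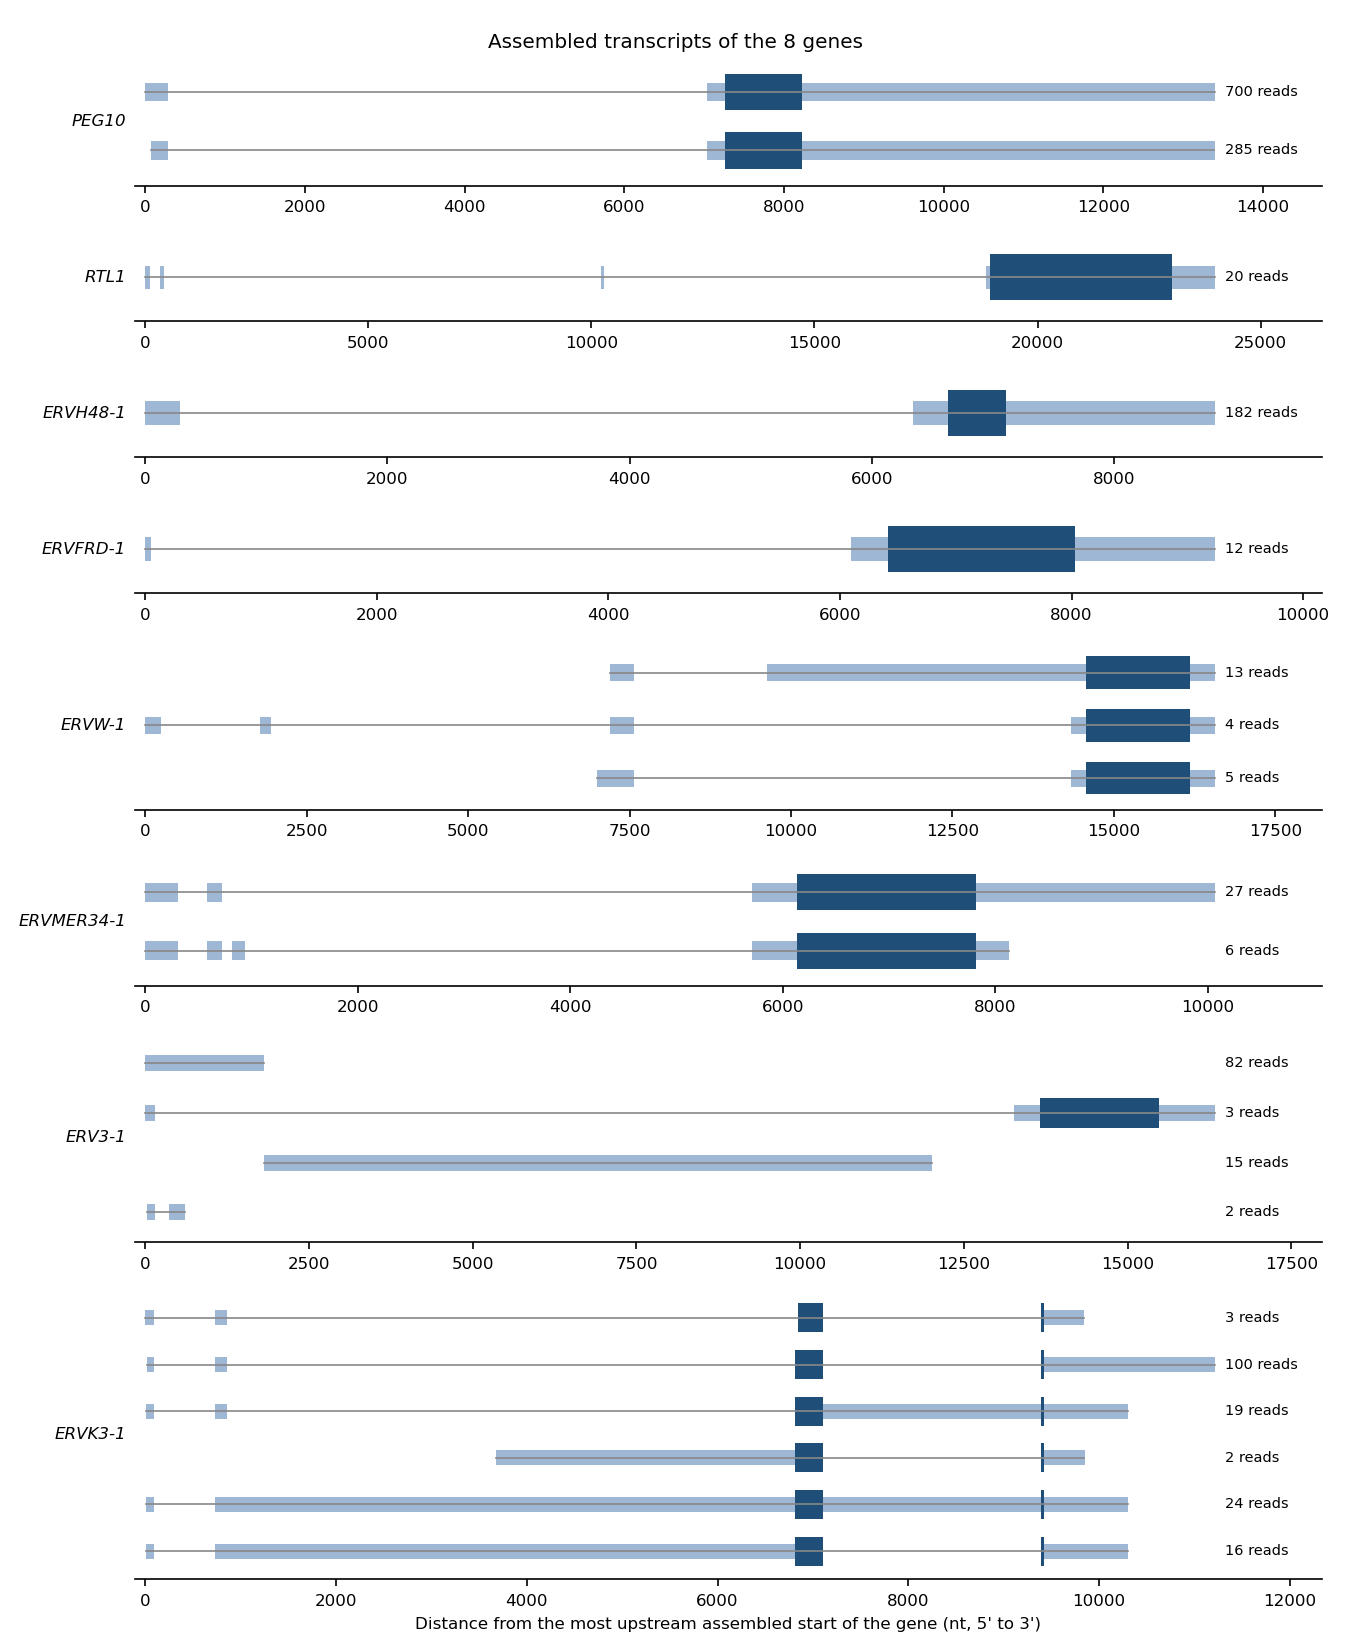
Assembled transcripts of the 8 genes, 1 line each, drawn 5′ to 3′ by distance in nt from the gene's most upstream assembled start (x axis, scaled per gene). Thin boxes are exons, and the reads of all 8 libraries stand at the right. Thick dark boxes are parts of the coding region (for PEG10 the gag frame of 325 codons, for ERVH48-1 the longest reading frame). The envelope-coding transcript of ERV3-1 has 3 reads and the single exon at its start 82.

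**Figure D5:**
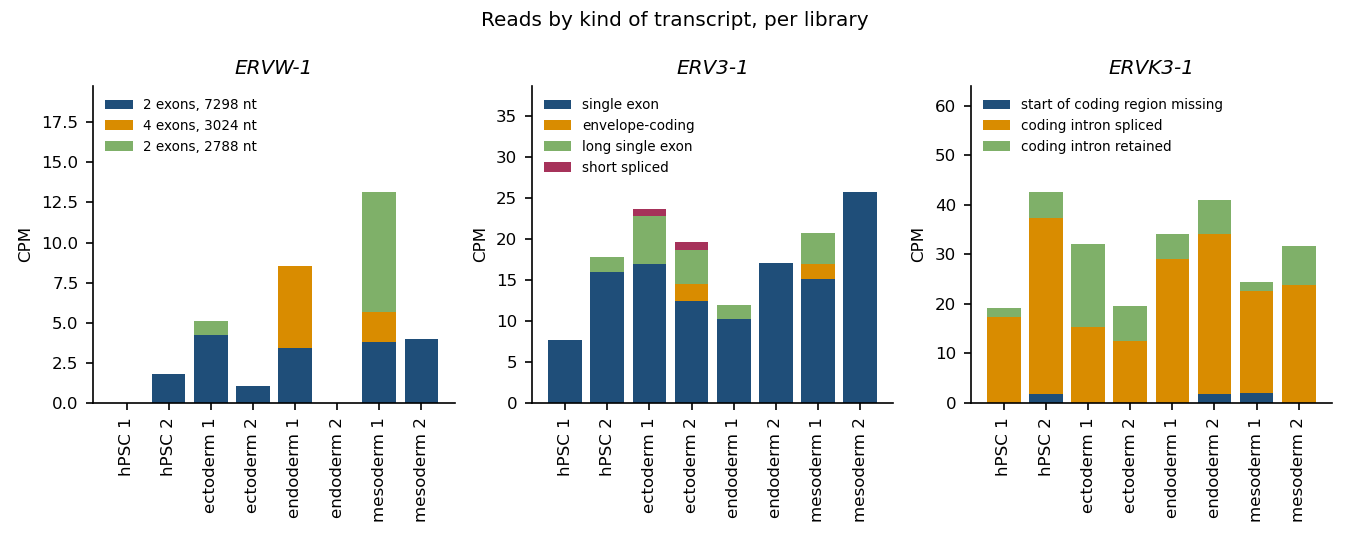
Stacked CPM (y axis, linear from 0) of ERVW-1, ERV3-1 and ERVK3-1 in each library (x axis), divided by kind of transcript. For ERVK3-1 the transcripts that keep the coding intron are 52.6% and 36.8% of the reads in ectoderm and 25% or less elsewhere.

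Over all 8 genes, the transcripts of PEG10, RTL1, ERVH48-1, ERVFRD-1, ERVW-1 and ERVMER34-1 all held the whole coding region. For PEG10 that region was taken as the gag frame of 325 codons. For ERVH48-1 it was the longest reading frame of the reference transcript matched, so the result largely follows from that match. In transcripts with the whole coding region ERVK3-1 had 118 of 164 reads and ERV3-1 had 3 of 102. These are properties of the assembled transcripts: a read counted for one need not span it. Of the 20 transcripts, 15 matched the intron chain of a reference transcript, 12 were found in the assembly of 1 group and 4 in those of all groups. Counts of the genes from the combined assembly and from each group's own assembly were identical in 38 of 64 pairs of values and within 2 reads in 56, with a largest difference of 11 reads.

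Neighbours were read beside 2 imprinted genes. SGCE starts 112 nt from PEG10 on the opposite strand and is imprinted with it. It had 12 and 8 reads in the hPSC repeats, 49 and 43 in those of ectoderm, 12 and 15 in those of endoderm and 10 and 17 in those of mesoderm, and was not called in any layer (adjusted p = 0.111, 0.313 and 0.679). In endoderm the value of SGCE was 0.66 ± 0.46 on the log2 scale where that of PEG10 was 4.17 ± 0.39. The other genes of that imprinted cluster on the list, PPP1R9A and CASD1, rose in ectoderm, by 2.17 ± 0.40 and 2.22 ± 0.43 (adjusted p = 0.000483 and 0.000706). Of the 3 tested neighbours of PEG10, 2 were called higher in ectoderm, where 23.8% of all tested genes were. None was called in endoderm or mesoderm, where PEG10 itself was. In those layers 27.2% and 35.1% of all tested genes were called in either direction.

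Around RTL1, 3 genes of the imprinted cluster were tested. DLK1, a paternally expressed membrane ligand, had 468 and 312 reads in ectoderm, none in hPSC or endoderm and 1 in each mesoderm library, and rose in ectoderm (adjusted p = 3.56e-07). DIO3, which inactivates thyroid hormone, had 33 and 22 reads in endoderm against 1 or none in hPSC and ectoderm and 0 and 4 in mesoderm, and rose in endoderm (adjusted p = 0.000156). MEG3, the maternally expressed noncoding RNA, fell in mesoderm (log2 fold change -1.30 ± 0.42, adjusted p = 0.0241). RTL1 itself had reads in both the layer with DLK1 and the layer with DIO3.

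Other genes of gag origin were read from a list of 22, of which 18 had reads and 10 were tested. In ectoderm 4 fell and none rose, in endoderm 2 rose and none fell, and in mesoderm 1 rose and 1 fell. These 4, 2 and 2 of 10 stand beside 48.6%, 27.2% and 35.1% of all tested genes called in either direction. The median log2 fold changes were -0.60, 0.74 and 0.04, against -0.01, -0.13 and 0.01 for all genes. LDOC1, a relative of PEG10 on the X chromosome, fell by 2.46 in ectoderm (SE 0.40, adjusted p = 0.000192), where PEG10 rose. RTL8C fell by 1.60 in ectoderm (adjusted p = 0.00113) and rose by 1.73 in endoderm (adjusted p = 0.000812), and RTL8A fell by 1.64 (adjusted p = 0.00305) and rose by 1.11 (adjusted p = 0.0316). RTL8A, RTL8B and RTL8C are near copies, so the split of reads between them is uncertain. PNMA8A fell by 1.68 in mesoderm (adjusted p = 0.0176). CCDC8, named for completeness after its values were seen, fell by 1.30 in ectoderm and rose by 1.15 in mesoderm. Its hPSC repeats had 52.0 and 17.8 CPM and its ectoderm repeats 16.1 and 20.7 CPM, so those groups overlapped. Of 8 other genes of env, protease or polymerase origin 6 had reads and 1 was tested: NYNRIN fell by 2.12 in endoderm (SE 0.53, adjusted p = 0.00812).

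For each tested gene, the tested genes with the most similar pattern were found by Pearson's r of log2 CPM over the 8 libraries, which share their groups and depth, as a description. PEG10 was most like NRP2 (r = 0.979), ELOVL2 (0.975) and FAM222A (0.971). ERVH48-1 was most like CNN1 (0.985), with 88.5 and 99.2 CPM in mesoderm and 5.08 and 5.17 CPM in ectoderm, and ACTN4 (0.970) was also among the most similar. ERV3-1 was most like IFT172 (0.958), CSAD (0.947) and ECHDC2 (0.939), and ERVK3-1 most like PPP1R11 (0.949), SDR39U1 (0.948) and NR1H3 (0.945).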

How the data were processed

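The deposited tables give the authors' raw counts of long reads per assembled transcript, from minimap2 and StringTie on GRCh38 (hg38), per the submitters' processing notes. Versions, strand use and the treatment of reads shared by copies are not given in the sources used here. The endoderm count columns are recorded as deposited expected counts because their names read as positions, but they hold whole numbers and nothing was rounded. Gene counts are sums over transcripts that carry a gene name in the assembly, and unnamed loci were kept as genes of their own in the tests. The members and gene lists were chosen with earlier results of these data known.

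Counts were tested in edgeR 4.0.16 (R 4.3.3): TMM, filterByExpr with a minimum count of 10, 1 quasi-likelihood fit over all 8 libraries, two-sided, Benjamini-Hochberg at 0.05. SE is the log2 fold change divided by the root of F. Transcript choice used diffSpliceDGE. Ratios of pooled CPM have exact conditional binomial 95% intervals. All 3 tests were checked on simulated data. Alternatives included DESeq2 1.42.0. Genes named from lists were the called ones with the largest fitted change, at most 4 a list, and a few others chosen after their values were seen. Coding regions, spliced sequences and the frameshift site are from GENCODE 29, microRNAs and starts from RefSeq GRCh38.p14. A gene that the rule on similar patterns names is not reported here.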

Additional observations from a re-analysis of the deposited data

How the results depend on the processing

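The members' calls that changed with a setting are given beside them in the report, and no member changed sign while called. DESeq2's Wald test called fewer genes in ectoderm, endoderm and mesoderm against hPSC (3356, 1836 and 2315) and in ectoderm against mesoderm (2015), and fewer transcripts (2899, 1606 and 2133). Leaving out 1 library at a time gave 3346 to 5758, 1472 to 3861 and 1962 to 4875 genes against hPSC. Between layers it gave 5231 to 7586 for ectoderm against endoderm, 1848 to 5238 for ectoderm against mesoderm, and 3335 to 6085 for endoderm against mesoderm. Transcripts ranged from 3536 to 6601, 1557 to 4372 and 2149 to 5617, and genes with a change of transcript choice from 11 to 279, 31 to 215 and 46 to 286. The main fit called 6841, 3839 and 5107 genes between layers, inside those ranges, so calls were both lost and gained. The cause was not tested. A fit with the repeat number as a block called 98 genes for transcript choice in ectoderm in place of 148, and it changed no call of a member. The labels do not say whether repeat numbers pair the samples. Deviations of same-numbered libraries correlated between -0.0341 and 0.150 over genes, which with 2 repeats a group cannot decide it. With no filter, transcript choice called 113 genes in mesoderm in place of 184. Removing the length trend moved the median of all genes from 0.19 to 0.02 in ectoderm against endoderm. Depth limits the 4 untested members, at 12 to 33 reads each.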
